A study of Mus musculus with 6 samples.

Results

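Translation initiation factors (eIFs) bring the ribosome, the initiator methionyl-tRNA and the start codon of an mRNA together, and elongation factors (eEFs) carry aminoacyl-tRNAs to the ribosome and move it along the message. Their genes are described here in mouse pancreatic islets treated with cisplatin, a platinum compound that crosslinks DNA. The members are all probe rows of the deposited count table whose gene symbol starts with Eif1 to Eif6, Eef1 or Eef2, apart from 6 rows of the eIF2 kinases (Eif2ak). This gave 102 rows for 65 genes, of 30146 rows for 21400 genes in all, with 52 initiation factor genes and 13 elongation factor genes. Islets of 3 male wild-type C57Bl/6 mice, whose ages the labels do not give, were divided between both arms and cultured for 48 h. Cisplatin at 10 uM was given to 3 cultures, and its saline vehicle to the other 3, in the same serum-containing medium. The assay was TempO-Seq, which joins neighbouring detector oligonucleotides on their RNA and counts the joined products. Each row is thus a reading of 1 short site in a transcript, and a gene may have several. Probes differ in efficiency, so levels and ratios of different probes are compared between the arms and not read as relative abundance.

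Initiation usually begins with a ternary complex of eIF2, GTP and initiator tRNA, which eIF2B keeps supplied by recharging eIF2 with GTP. eIF1, eIF1A and the large eIF3 complex help this complex onto the small ribosomal subunit. eIF4E binds the mRNA cap and eIF4G joins it to the helicase eIF4A, while 4E-binding proteins block the cap-binding factor when the kinase mTOR is inactive. eIF5 and eIF5B act at the start codon and at subunit joining, and eIF6 keeps the large subunit from joining too early. In beta cells this machinery carries the high rate of proinsulin synthesis, and phosphorylation of eIF2 slows it under stress.

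Cisplatin libraries held 1116916 to 1366829 counts and vehicle libraries 1470227 to 2272276, so low members are measured less precisely with cisplatin. Mitochondrially encoded rows took 2.83%, 3.11% and 28.6% of the cisplatin libraries and 0.188% to 1.74% of the vehicle libraries, with cisplatin library 3 standing apart. The islet label fits its 7 endocrine markers, all of them above 0 in both arms, which took 5.57% to 14.1% of cisplatin counts and 15.9% to 25.8% of vehicle counts. Of the endocrine markers 2, Chga and Gcg, were called lower. The 7 immune markers took 0.00107% to 0.00395% of cisplatin counts and 0.0128% to 0.0285% of vehicle counts, with 4 of 5 tested called lower and none of the 7 at 0 in all libraries of an arm. The 6 acinar markers took at most 0.00322% of cisplatin and 0.00163% of vehicle counts, with Prss2 at 0 in every library, Amy2a5 at 0 with cisplatin, and the tested marker, Bhlha15, not called. The 5 endothelial markers took 0.00838% to 0.0107% of cisplatin and 0.00796% to 0.0134% of vehicle counts (1 of 3 tested called higher, 2 lower, Cdh5 at 0 with cisplatin), and the 5 stromal markers took 0.00385% to 0.00593% of cisplatin and 0.00599% to 0.0257% of vehicle counts (1 of 4 tested called lower). The 5 duct markers took 0.106% to 0.160% of cisplatin and 0.129% to 0.180% of vehicle counts, with neither tested marker called. Most of these counts were of Krt7 (4303 with cisplatin, 8184 with vehicle), while Cftr was at 0 with cisplatin and Sox9 at 0 with vehicle. The part of these differences in the results below was not tested, and in whole islets fewer cells of a type and less RNA per cell cannot be told apart.

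A feature that the selection by name did not use was a CACGTG hexamer (the E-box bound by Myc, Usf and related factors) within 250 bases before the annotated start. RefSeq windows on GRCm38.p6 were found for 49 of the 65 genes, and 12 of these genes (24.5%) held the hexamer in at least 1 window. Of all 27025 genes with a window 6.86% held it, and of the 5732 with a tested row 10.6%. Counted by window the hexamer was in 22.2% of the factors' 63, against 6.02% of 32851 windows of all genes and 8.64% of the 7467 windows of genes with a tested row. A gene may have several windows, such as 6 for Eif5a, so windows are not independent. The hexamer is its own reverse complement, so both strands were covered. It was found in windows of Eif4e, Eif4g1, Eif4a1, Eif4h, Eif3f, Eif3k, Eif5a, Eif5a2, Eif1b, Eef2, Eef2k and Eef1aknmt. Of the 14 tested rows of these genes 1 was called higher and 1 lower (background 11.1% and 13.9% of all tested rows), with a median log2 fold change of 0.28, against 0.24 over all tested factor rows. Windows are shown for the 3 parts of the cap-binding complex, for the called gene Eif5a, and for Eif1ad and Eif4g3, which had some of the largest changes and no CACGTG in the window. Each is printed 5′ to 3′ and ends at the base before the annotated start, with the hexamer in capitals (Eif4e at chr3:138527018-138527267, plus strand, Eif4g1 at chr16:20672477-20672726, plus strand, Eif4a1 at chr11:69672424-69672673, minus strand, Eif5a at chr11:69921387-69921636, minus strand, Eif1ad at chr19:5366563-5366812, plus strand, Eif4g3 at chr4:137993205-137993454, plus strand).
Eif4e: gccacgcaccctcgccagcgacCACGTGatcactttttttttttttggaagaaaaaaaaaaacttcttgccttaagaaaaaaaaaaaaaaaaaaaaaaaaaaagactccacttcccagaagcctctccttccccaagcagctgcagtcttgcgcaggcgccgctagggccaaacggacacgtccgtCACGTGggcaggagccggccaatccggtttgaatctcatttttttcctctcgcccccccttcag
Eif4g1: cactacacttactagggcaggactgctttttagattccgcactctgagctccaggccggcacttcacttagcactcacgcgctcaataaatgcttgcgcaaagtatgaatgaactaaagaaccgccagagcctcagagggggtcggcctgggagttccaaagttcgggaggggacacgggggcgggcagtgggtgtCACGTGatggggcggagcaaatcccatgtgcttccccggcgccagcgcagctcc
Eif4a1: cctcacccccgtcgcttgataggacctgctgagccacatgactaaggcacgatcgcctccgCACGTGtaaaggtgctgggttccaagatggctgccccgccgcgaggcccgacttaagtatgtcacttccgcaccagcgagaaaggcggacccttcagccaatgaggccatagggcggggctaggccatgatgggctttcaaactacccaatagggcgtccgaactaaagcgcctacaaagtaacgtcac
Eif5a: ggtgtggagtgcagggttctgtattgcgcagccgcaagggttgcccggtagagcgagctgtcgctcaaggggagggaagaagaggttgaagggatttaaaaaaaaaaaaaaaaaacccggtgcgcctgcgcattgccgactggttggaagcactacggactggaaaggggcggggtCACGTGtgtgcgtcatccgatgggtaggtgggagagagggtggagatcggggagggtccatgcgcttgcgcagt
Eif1ad: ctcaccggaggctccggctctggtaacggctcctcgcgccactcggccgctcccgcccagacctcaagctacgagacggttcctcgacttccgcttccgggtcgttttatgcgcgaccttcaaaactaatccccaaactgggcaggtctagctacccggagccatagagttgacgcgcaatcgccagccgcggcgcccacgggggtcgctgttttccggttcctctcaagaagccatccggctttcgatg
Eif4g3: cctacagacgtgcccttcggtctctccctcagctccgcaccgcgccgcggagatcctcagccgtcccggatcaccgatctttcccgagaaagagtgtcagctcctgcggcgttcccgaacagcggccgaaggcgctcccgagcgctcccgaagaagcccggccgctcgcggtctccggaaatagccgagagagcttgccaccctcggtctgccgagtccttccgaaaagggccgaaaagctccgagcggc

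Most translation factor rows did not pass the test, and those that did went both ways. Of 63 rows with enough counts to be tested, 8 were called higher and 5 lower with cisplatin, and 50 (79.4%) were not called. Called means a Benjamini-Hochberg adjusted p under 0.05 in edgeR's quasi-likelihood test over all 9381 tested rows, of which 25% were called, 11.1% higher and 13.9% lower. The share called among factors, 20.6%, was close to that background. The rows called higher belonged to 8 genes, Eif1a, Eif1ad, Eif3d, Eif3j1, Eif4a3, Eif5, Eif5a and Eif6. The rows called lower belonged to Eif4g3, with 3 probes, and to Eif3h and Eef2k. The median log2 fold change (cisplatin minus vehicle) was 0.24 over the tested factor rows and -0.07 over all tested rows. With library totals as the only scale the medians were -0.21 and -0.54, and 2 rows were called higher and 7 lower. In 14 tested factor rows (background 19.1% of all tested rows) every cisplatin library lay above every vehicle library, and in 6 (background 24.3%) every one lay below. Without vehicle library 1 the numbers called were 3 and 2, and without vehicle library 3 they were 4 and 3. The share called over all tested rows fell as well, from 25% to 10.9% and 13% in these fits.

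**Figure D1:**
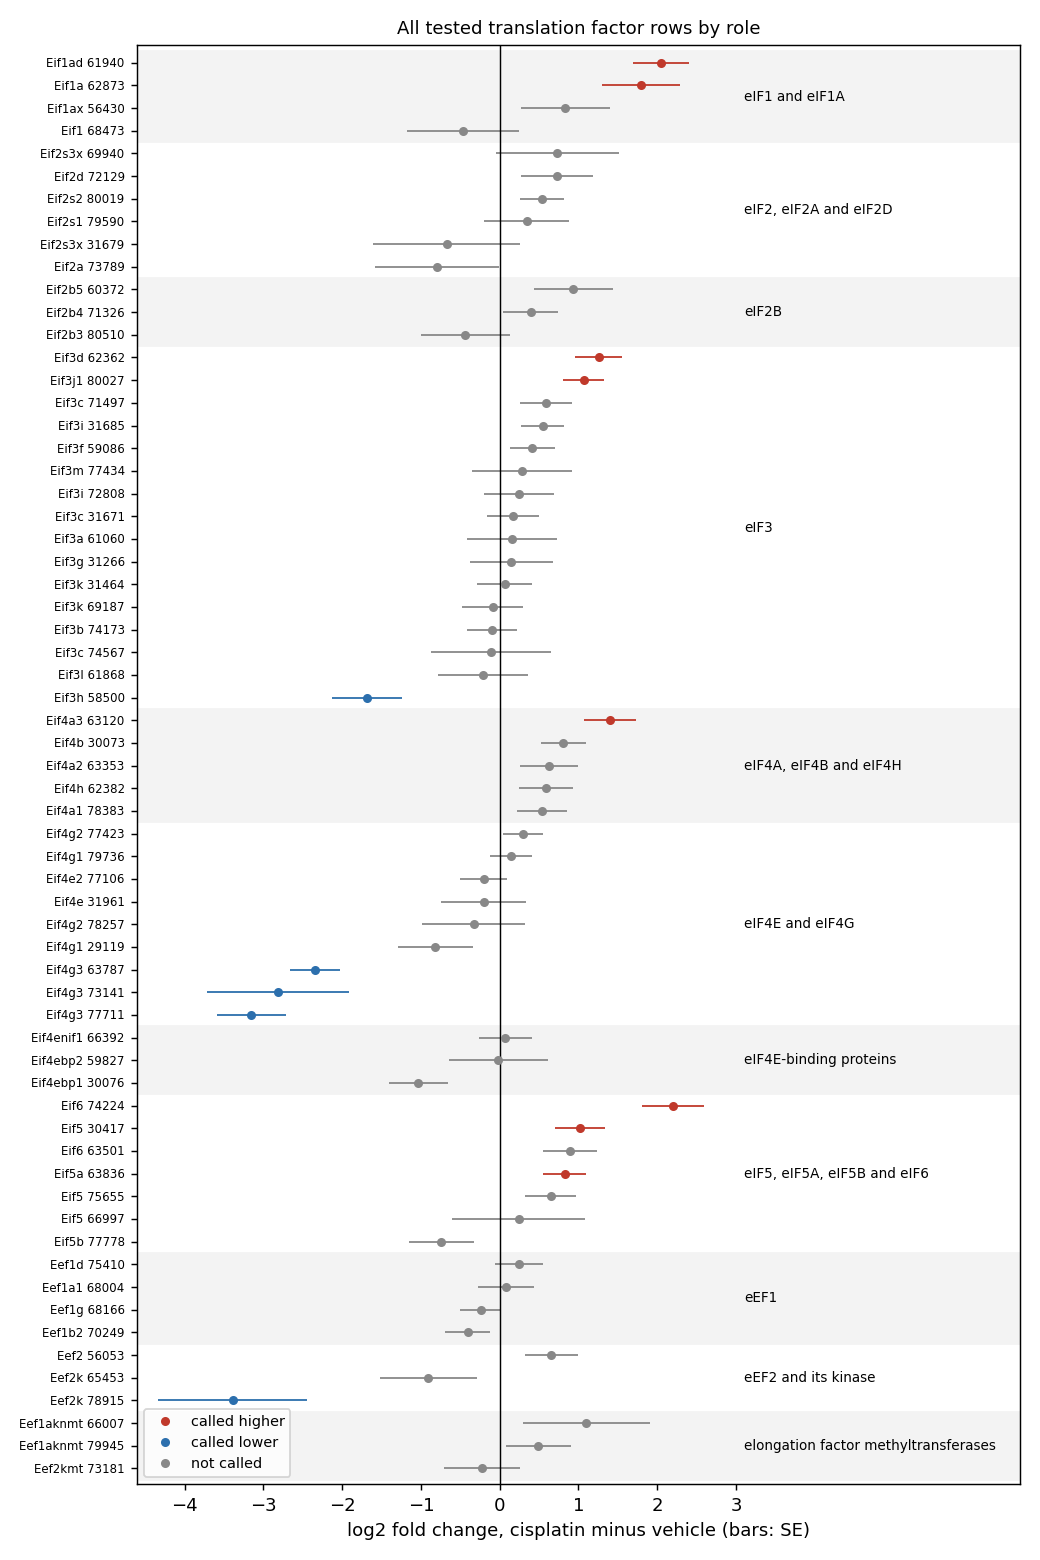
Log2 fold change (cisplatin minus vehicle, horizontal axis) with its SE for all 63 tested factor rows, 1 line per probe, grouped by role. The rows not called lie between -1.03 and 1.098, the 3 Eif4g3 probes lie between -2.34 and -3.15, and the largest rise is an Eif6 probe at 2.20.

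Together the 102 rows took a similar part of the libraries in both arms. They held 1.35%, 0.868% and 0.897% of counts in cisplatin libraries 1 to 3, against 1.02%, 1.02% and 0.971% in the vehicle libraries of the same mice. The mean was 1.04% ± 0.273 with cisplatin and 1.01% ± 0.0296 with vehicle (SD, n = 3 each, exact permutation p = 1, two-sided, where 0.1 is the smallest possible). The groups overlapped, and cisplatin library 1 was the highest of all 6. Without that library the difference in means was -0.123 percentage points in place of 0.0344. The cisplatin libraries spread more widely than the vehicle libraries, and with mitochondrially encoded rows left out of the total the rows held 1.39%, 0.896% and 1.26% of cisplatin libraries, against 1.04%, 1.02% and 0.979% of vehicle libraries.

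Among Eif1, the eIF1A genes and the related Eif1ad, 2 of 4 tested rows rose, Eif1ad and Eif1a (background 11.1% of all tested rows). Eif1ad codes for a nuclear protein with an eIF1A-like domain. Its probe had 216, 92.2 and 157 CPM (counts scaled to a common library size with TMM factors) in cisplatin libraries 1 to 3, against 36.0, 36.0 and 40.5 CPM in vehicle libraries. Every cisplatin library was above every vehicle library, which lay close together. The log2 fold change was 2.05 ± 0.35 (SE, edgeR, adjusted p = 0.00110), and it passed in all 14 alternative fits. The gene lies on chromosome 19 from 5366741 to 5371526 in the GENCODE M21 annotation of GRCm38. Eif1a, which codes for a form of eIF1A, had 57.5, 19.0 and 70.8 CPM with cisplatin, against 13.4, 15.2 and 13.8 CPM with vehicle (1.79 ± 0.49, edgeR adjusted p = 0.0172). Cisplatin library 2 was only slightly above the vehicle libraries. The call for Eif1a was lost on leaving out cisplatin library 3 (adjusted p = 0.0768), vehicle library 1 (0.0809) or vehicle library 3 (0.0726), and on scaling by library totals alone (0.0757). Its X-linked counterpart Eif1ax overlapped between the arms (0.83 ± 0.57, edgeR adjusted p = 0.314). The Eif1 probe, for the factor that guards start codon choice, had 5.70 to 18.6 CPM with cisplatin and 6.72 to 25.9 CPM with vehicle, also overlapping. Within a library the log2 ratio of Eif1ax to Eif1a was -0.94 ± 1.36 with cisplatin and -0.22 ± 0.62 with vehicle (SD, n = 3 each, exact permutation p = 0.4).

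No row of an eIF2 subunit or of its exchange factor eIF2B was called, of 7 tested (background 11.1% higher and 13.9% lower of all tested rows). Eif2s2, the beta subunit of eIF2, had 1475, 1584 and 2188 CPM with cisplatin, against 1102, 1208 and 1294 CPM with vehicle. All cisplatin libraries lay above the vehicle libraries, but the row did not pass the test (0.54 ± 0.28, edgeR adjusted p = 0.176). Eif2s1, the alpha subunit that stress kinases phosphorylate, had 51.6, 47.5 and 8.58 CPM with cisplatin, against 24.1, 37.3 and 24.4 CPM with vehicle. Cisplatin library 3 was the lowest of all and libraries 1 and 2 the highest, so the arms overlapped (0.35 ± 0.54, edgeR adjusted p = 0.691). Eif2b5, the catalytic subunit of eIF2B, had 44.8, 56.1 and 24.7 CPM with cisplatin, against 18.2, 36.6 and 11.8 CPM with vehicle. It was higher with cisplatin in 3 of 3 mice without passing the test (0.94 ± 0.50, edgeR adjusted p = 0.187). Eif2b4, another eIF2B subunit, was at 0.39 ± 0.35 (edgeR adjusted p = 0.450).

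Of 12 eIF3 subunit genes with a tested row 2 rose and 1 fell, each judged by its most abundant probe. These shares are near those over all 7186 tested genes, of which 12.3% were called higher and 13.8% lower by the same measure. Eif3d, a subunit that can itself bind the cap of some mRNAs, had 950, 665 and 1344 CPM with cisplatin, against 417, 391 and 428 CPM with vehicle. The arms did not overlap, and the log2 fold change was 1.26 ± 0.30 (edgeR adjusted p = 0.00771). Eif3j1, a loosely attached subunit, had 475, 359 and 449 CPM with cisplatin and 202, 210 and 201 CPM with vehicle (1.07 ± 0.26, edgeR adjusted p = 0.00845). Both arms were tight for this gene and lay about 2.09-fold apart. Eif3h, a subunit that budding yeast lacks, fell to 20.3, 13.3 and 9.65 CPM with cisplatin, against 41.5, 58.7 and 40.9 CPM with vehicle. Its arms did not overlap either (-1.68 ± 0.44, edgeR adjusted p = 0.0132). Its other 2 probes had too few counts to be tested. Without vehicle library 1, Eif3d, Eif3j1 and Eif3h were not called (adjusted p = 0.0504, 0.0573 and 0.0565). Eif3h was also not called without vehicle library 2 (0.0562) and Eif3j1 without vehicle library 3 (0.0583). With library totals alone Eif3d and Eif3j1 were not called (0.0866 and 0.171). The large scaffold subunit Eif3a had 13.5, 30.4 and 9.65 CPM with cisplatin and 14.6, 13.3 and 20.1 CPM with vehicle, which overlap (0.16 ± 0.57, edgeR adjusted p = 0.876). The Eif3e probe was at 0 in every library, where a count of 0 allows up to 3.22 CPM in cisplatin library 3 and up to 1.19 CPM in vehicle library 1 (3 counts of the library, counting error only). These bounds hold for the signal of the probe. A probe that reads its site poorly would also be at 0, so they do not limit the level of Eif3e RNA.

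Of the eIF4A helicases and their helpers, Eif4a3 rose. Its protein, a relative of eIF4A, is the core of the exon junction complex that marks spliced mRNAs. It had 167, 138 and 90.1 CPM with cisplatin and 46.2, 56.8 and 47.2 CPM with vehicle. The lowest cisplatin library was above the highest vehicle library (1.40 ± 0.33, edgeR adjusted p = 0.00713), and the row missed the threshold with library totals alone (0.0787). Eif4b, which stimulates the helicase and was picked after its values were seen, had 644, 490 and 376 CPM with cisplatin, against 236, 342 and 287 CPM with vehicle. These groups did not overlap, yet the row missed the threshold (0.81 ± 0.29, edgeR adjusted p = 0.0538), and it was called in 5 of 14 alternative fits. The helicase genes themselves overlapped. Eif4a1 had 326, 472 and 288 CPM with cisplatin and 176, 362 and 213 CPM with vehicle (0.54 ± 0.32, edgeR adjusted p = 0.247). Eif4a2 had 1997, 1040 and 1211 CPM with cisplatin and 575, 1434 and 738 CPM with vehicle (0.63 ± 0.37, edgeR adjusted p = 0.236). Their within-library log2 ratio, Eif4a2 over Eif4a1, was 1.94 ± 0.75 with cisplatin and 1.83 ± 0.14 with vehicle (SD, n = 3 each, exact permutation p = 0.8). The table does not show whether probes of such close relatives (or of Eif1a and Eif1ax) count the same reads.

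**Figure D2:**
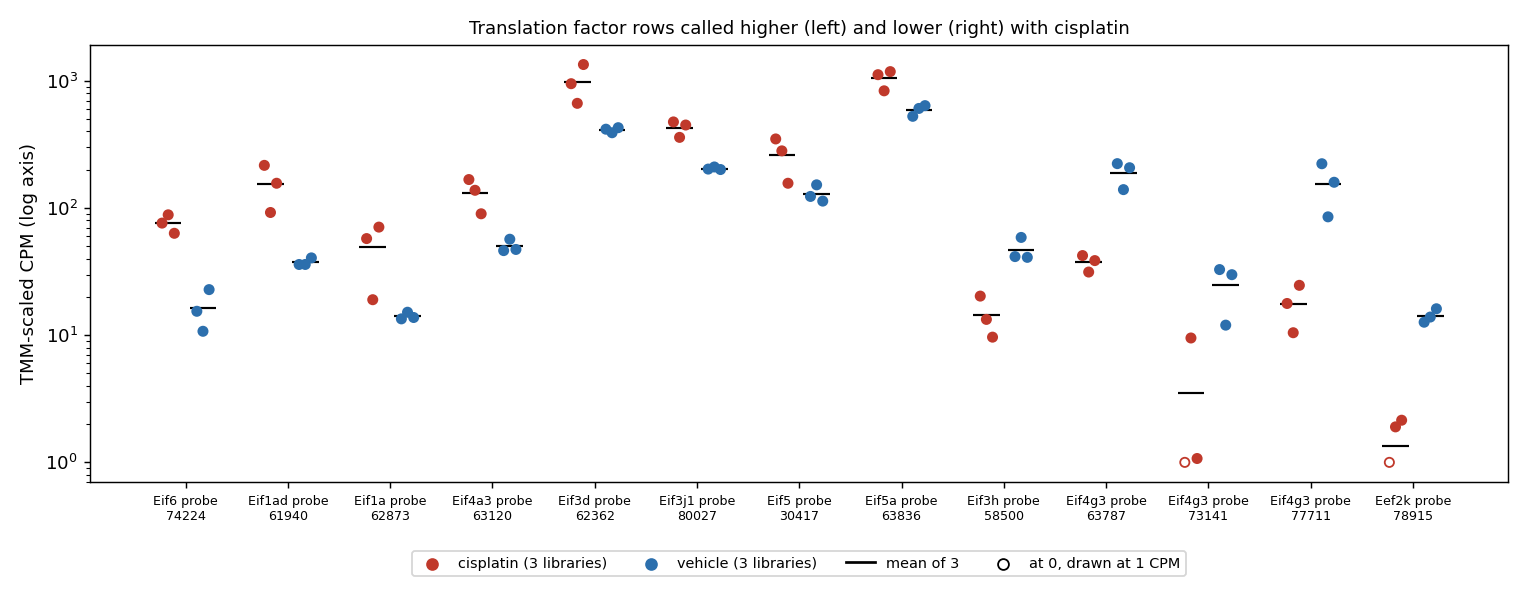
CPM scaled with TMM factors (log axis) of the 13 called rows in each of 3 cisplatin and 3 vehicle libraries, with the mean of each group as a line and open circles for libraries at 0. In each row the cisplatin libraries lie wholly above or wholly below the vehicle libraries, most narrowly for Eif1a, Eif5 and the Eif4g3 probe 73141.

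Eif4g3, which codes for eIF4GII, a scaffold of the cap-binding complex, fell at all 3 of its probes. The most abundant Eif4g3 probe, 63787, had 42.3, 31.4 and 38.6 CPM with cisplatin, against 223, 140 and 207 CPM with vehicle. Probe 77711 had 17.8, 10.5 and 24.7 CPM with cisplatin and 223, 85.2 and 159 CPM with vehicle. Every cisplatin library was well below every vehicle library for both probes, with vehicle library 2 the lowest of its group. Their log2 fold changes were -2.34 ± 0.32 and -3.15 ± 0.44 (edgeR adjusted p = 2.2e-04 and 2.6e-04). Both passed in all 14 alternative fits, where the fit with probes summed tested Eif4g3 as a whole. The third probe, 73141, was at 0, 9.51 and 1.07 CPM with cisplatin and at 32.8, 12 and 29.9 CPM with vehicle (-2.81 ± 0.90, edgeR adjusted p = 0.0346). It was at -5.52 without cisplatin library 2 and at -2.12 without cisplatin library 1. It was not called without cisplatin library 3 (0.107) or vehicle library 1 (0.178) or 3 (0.123).

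The 2 related scaffold genes did not share that fall at their most abundant probes. Eif4g1, for the major scaffold eIF4GI, had 189, 156 and 155 CPM with cisplatin and 161, 143 and 150 CPM with vehicle (0.14 ± 0.26, edgeR adjusted p = 0.746). Eif4g2, for a relative that lacks the cap-binding partner site, had 448, 557 and 553 CPM with cisplatin and 464, 414 and 392.4 CPM with vehicle (0.29 ± 0.25, edgeR adjusted p = 0.435). For these genes the arms overlapped. The log2 ratio of Eif4g3 to Eif4g1 within a library, which does not depend on the scaling, was -2.15, -2.30 and -1.995 with cisplatin, against 0.47, -0.03 and 0.46 with vehicle. The means differed by -2.45 without overlap (exact permutation p = 0.1, the smallest possible, and 0.56 adjusted over the 7 pairs whose genes both had a tested probe). The ratio of Eif4g2 to Eif4g1 differed by 0.15 (exact permutation p = 0.4). A less abundant Eif4g1 probe, 29119, had 27.9, 24.7 and 12.9 CPM with cisplatin and 47.4, 20.2 and 48.0 CPM with vehicle. It overlapped between the arms (-0.82 ± 0.47, edgeR adjusted p = 0.231).

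**Figure D3:**
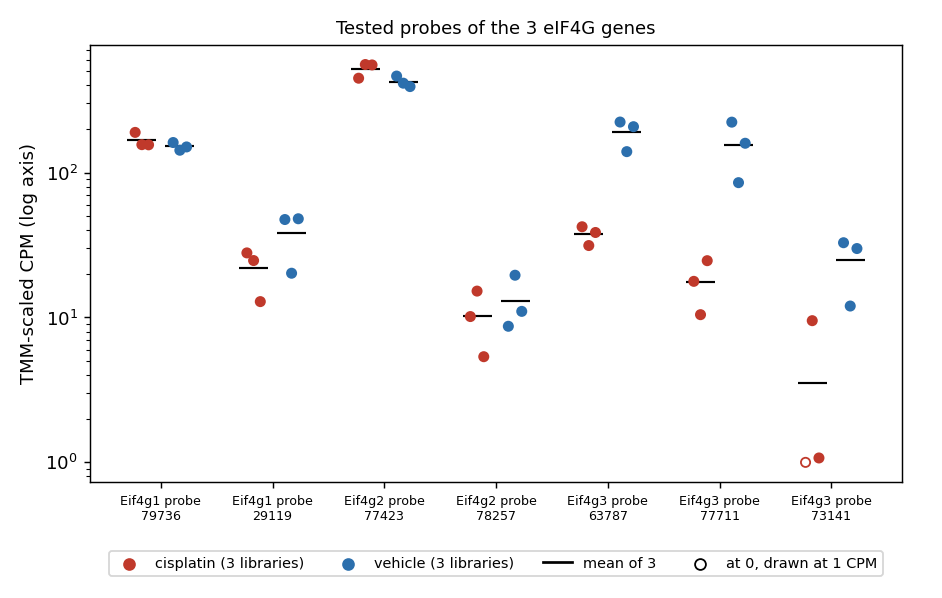
CPM scaled with TMM factors (log axis) of the 7 tested probes of the 3 eIF4G genes in 3 cisplatin and 3 vehicle libraries, with group means as lines and an open circle for a library at 0. Cisplatin libraries lie below all vehicle libraries at the 3 Eif4g3 probes, while at the Eif4g1 and Eif4g2 probes the groups overlap.

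The cap-binding protein gene and its inhibitors were not called. The tested Eif4e probe had 18.6, 21.9 and 18.2 CPM with cisplatin, between the lowest and highest of the vehicle libraries at 20.6, 37.3 and 10.6 CPM (-0.21 ± 0.54, edgeR adjusted p = 0.825). The other 2 Eif4e probes were at 0 in every library. Eif4ebp1 codes for 4E-BP1, which sequesters eIF4E and whose gene is a known Atf4 target in mouse beta cells. It had 30.4, 61.8 and 59.0 CPM with cisplatin, against 107, 68.2 and 133 CPM with vehicle, so every cisplatin library was below every vehicle library. The log2 fold change was -1.03 ± 0.38 (edgeR adjusted p = 0.0590), and it was called lower in 4 of 14 alternative fits, among them library totals alone (-1.57, 0.00652) and the fit without vehicle library 2 (-1.27, 0.0380). The log2 ratio of Eif4ebp1 to Eif4e overlapped between the arms, at 0.70 to 1.67 with cisplatin and 0.87 to 3.62 with vehicle (exact permutation p = 0.3). Eif4ebp2 was at 14.9 ± 7.33 CPM with cisplatin and 14.9 ± 7.99 CPM with vehicle (SD, n = 3 each, -0.02 ± 0.63, edgeR adjusted p = 0.990), and its log2 ratio to Eif4e differed by 0.08 (exact permutation p = 1). Eif4enif1, for a carrier that takes eIF4E into the nucleus, was at 0.07 ± 0.34 (edgeR adjusted p = 0.908).

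Eif5, Eif5a and a probe of Eif6 rose, 3 of 7 tested rows of Eif5, Eif5a, Eif5b and Eif6 (background 11.1% of all tested rows). Eif5, which triggers GTP hydrolysis on eIF2 at the start codon, had 349, 281 and 157 CPM at its most abundant probe with cisplatin, against 123, 152 and 113 CPM with vehicle. The lowest cisplatin value was just above the highest vehicle value (1.02 ± 0.32, edgeR adjusted p = 0.0307), and 2 other tested Eif5 probes were not called. Eif5a, whose protein carries the modified residue hypusine and helps the ribosome through difficult peptide bonds, had 1118, 835 and 1182 CPM with cisplatin and 526, 607 and 638 CPM with vehicle. Its arms did not overlap (0.82 ± 0.27, edgeR adjusted p = 0.0371). Both calls were lost in several alternative fits. Eif5 was called without cisplatin library 3 or vehicle library 2 but not without cisplatin library 1 (adjusted p = 0.0788) or 2 (0.0809) or vehicle library 1 (0.118) or 3 (0.144). Eif5a was called without cisplatin library 2 but not without any other single library (adjusted p = 0.0685 to 0.176). Neither was called with library totals alone (0.242 and 0.424) or with no filter (0.0551 and 0.132).

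Eif6 probe 74224 had 76.1, 88.4 and 63.3 CPM with cisplatin, against 15.4, 10.7 and 22.8 CPM with vehicle. This was the largest rise among the tested factor rows, without overlap (2.20 ± 0.40, edgeR adjusted p = 0.00145). Probe 74224 passed in all 14 alternative fits, where the fit with probes summed tested Eif6 as a whole. The more abundant Eif6 probe, 63501, had 91.3, 164 and 85.8 CPM with cisplatin and 65.2, 49.2 and 68.5 CPM with vehicle. Its groups also did not overlap, but it missed the threshold (0.90 ± 0.34, edgeR adjusted p = 0.0702). With all Eif6 probes summed the change was 1.28. The log2 ratio of probe 74224 to probe 63501 was -0.26, -0.89 and -0.44 with cisplatin, against -2.07, -2.17 and -1.58 with vehicle. The probes of this gene therefore differed in their change by 1.41 (exact permutation p = 0.1, the smallest possible, and 0.35 adjusted over 14 probe pairs). Which Eif6 transcripts each probe covers is not given in the sources used here. Eif5b, the subunit-joining GTPase, was at -0.74 ± 0.42 and not called (edgeR adjusted p = 0.217).

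Elongation factor rows were called only for the kinase gene Eef2k, with 1 lower row of 10 tested and 0 higher (background 13.9% and 11.1%). Eef1a1, which delivers aminoacyl-tRNA, had 123, 58.9 and 56.8 CPM with cisplatin and 75.1, 85.2 and 66.9 CPM with vehicle. Cisplatin library 1 was the highest and the other two the lowest, so there was no common direction (0.08 ± 0.36, edgeR adjusted p = 0.900). The exchange factor subunit Eef1b2 had 118, 108 and 91.2 CPM with cisplatin and 113, 155 and 154 CPM with vehicle (-0.41 ± 0.29, edgeR adjusted p = 0.329). Its partners Eef1g (-0.24 ± 0.26, edgeR adjusted p = 0.544) and Eef1d (0.24 ± 0.30, 0.605) were not called. The translocase gene Eef2 had 1071, 910 and 2099 CPM with cisplatin, against 846, 725 and 1014 CPM with vehicle. Cisplatin library 3 was the highest, and cisplatin library 2 lay below vehicle library 3, so the arms overlapped (0.66 ± 0.34, edgeR adjusted p = 0.171). Eef1a2, the form of eEF1A found in neurons and muscle, had 11 counts with cisplatin and 27 with vehicle at its most abundant probe, too few to be tested.

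Eef2k codes for the kinase that inhibits eEF2. Its probe 78915 had 0, 1.90 and 2.14 CPM with cisplatin, against 12.6, 13.9 and 16.1 CPM with vehicle, so the groups were far apart on few counts. The log2 fold change was -3.39 ± 0.94 (edgeR adjusted p = 0.0182), at -2.68 without cisplatin library 1. It was not called without vehicle library 1 (0.111), 2 (0.0563) or 3 (0.130), or with all Eef2k probes summed (-1.50, 0.0501). The more abundant Eef2k probe, 65453, had 4.23, 19.96 and 8.58 CPM with cisplatin and 19.4, 25.3 and 16.9 CPM with vehicle. Cisplatin library 2 reached the vehicle range there (-0.91 ± 0.62, edgeR adjusted p = 0.315). The log2 ratio between these probes differed by -2.27 between the arms (exact permutation p = 0.1, the smallest possible, 0.35 adjusted over 14 probe pairs). The log2 ratio of Eef2k to Eef2 at their most abundant probes was -7.06 ± 1.37 with cisplatin and -5.38 ± 0.53 with vehicle (SD, n = 3 each, exact permutation p = 0.2). Of the methyltransferases that modify elongation factors, Eef1aknmt (0.49 ± 0.41, edgeR adjusted p = 0.419) and Eef2kmt (-0.22 ± 0.48, 0.785) were tested and not called. A probe of Eef1akmt2 had 0 counts with cisplatin and 28 with vehicle, at least 4.44-fold lower when the group is set at a floor of 3 counts, and was too low to be tested.

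The remaining members gave little to compare. A total of 39 rows were not tested, of which 6 were at 0 in every library, and the highest of the 39 had 46 counts over all 6 libraries. For 16 genes no row was tested, among them Eif2s3y, Eif2b1, Eif2b2, Eif1b, Eif5a2, Eif4e3, Eif4ebp3 and Eef1e1. The tested rows that were not called had log2 fold changes from -1.03 to 1.098. In mammals several members belong to the TOP mRNAs, whose translation follows mTOR activity through a pyrimidine-rich start. Of 9 such genes 8 were tested, 0 were called higher and 1, Eif3h, lower, which is near the gene background of 12.3% and 13.8%.

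Changes of the factors ran with the size of their genes, as they did for genes in general. The 49 factor genes with a tested row had a median genomic span of 17.4 kb in GENCODE M21, against 23.9 kb for all 7176 tested genes with a span. Across the factor genes the log2 fold change of the most abundant probe had a Pearson r of -0.51 and a Spearman rho of -0.38 with the logarithm of the span. Across all tested genes these were -0.56 and -0.56. Genes are not independent replicates and all points share the same 6 libraries. Without Eif4g3 the factors' r was -0.38. Of the 44 factor genes under 50 kb 7 were called higher and 0 lower, where 16.3% and 4.67% of all tested genes of that size were. Of the 5 factor genes of 50 kb or more 2 were called lower and 0 higher, against 38.2% and 1.47% of all tested genes of that size. Those called lower were Eif3h at 79.0 kb (chromosome 15, 51786558 to 51865523) and Eif4g3 at 215.5 kb (chromosome 4, 137993022 to 138208508). Eif2b3 (67.9 kb), Eef2k (64.6 kb) and Eif5b (57.6 kb) were below 0 at their most abundant probes without passing the test.

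**Figure D4:**
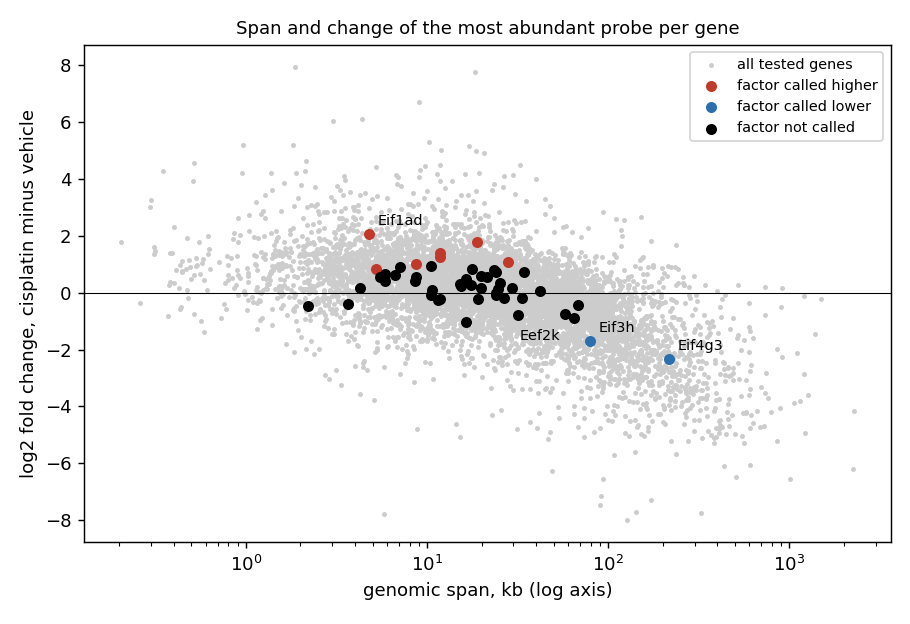
Log2 fold change of the most abundant probe (cisplatin minus vehicle) against genomic span in kb (log axis), with factor genes as large points over all tested genes in grey. The factor genes lie within the grey cloud, with Eif4g3 at 215.5 kb and -2.34 and Eif1ad at 4.79 kb and 2.05.

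Genes that regulate these factors were called in both directions. Of 17 tested genes of mTORC1 signalling and translation control 5 rose and 4 fell at their most abundant probe, of 20 listed (gene background 12.3% and 13.8%). Ddit4l, an inhibitor of mTORC1 signalling, had 65.1, 50.4 and 26.8 CPM with cisplatin, against 0.395, 6.31 and 1.97 CPM with vehicle (4.14 ± 0.72, edgeR adjusted p = 0.00120, at 5.23 without vehicle library 2). Mtor had 8.46, 4.75 and 2.14 CPM with cisplatin and 26.5, 19.6 and 36.2 CPM with vehicle (-2.38 ± 0.62, edgeR adjusted p = 0.0128). Rptor, its partner in the complex, had 8.46, 0.951 and 3.22 CPM with cisplatin and 30.8, 24.6 and 24.4 CPM with vehicle (-2.61 ± 0.68, edgeR adjusted p = 0.0129). Each of these 3 rows had its arms apart, on few counts in the lower arm, while a second tested Mtor probe, 71943, overlapped (-0.99 ± 0.91, edgeR adjusted p = 0.469). Mtor was not called without vehicle library 1 (0.0635) or 3 (0.0987), and Rptor not without vehicle library 1 (0.0870), with -3.57 without cisplatin library 1. Outside these counts, a less abundant probe of Akt1s1, 76658, was called higher (1.53 ± 0.33, edgeR adjusted p = 0.00415). The most abundant Akt1s1 probe was not called (0.04 ± 0.32, edgeR adjusted p = 0.940).

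The other 6 genes of that list called at their most abundant probe were named after their values were seen. They include an activator and an inhibitor of mTORC1 among those higher and 2 inhibitors among those lower. Rheb, the GTPase that activates mTORC1, had 465, 266 and 419 CPM with cisplatin, against 130, 157 and 181 CPM with vehicle (1.29 ± 0.29, edgeR adjusted p = 0.00584). Ddit4, an inhibitor like Ddit4l, had 25.4, 47.5 and 23.6 CPM with cisplatin and 7.12, 6.95 and 11.4 CPM with vehicle (1.90 ± 0.53, edgeR adjusted p = 0.0178). Deptor, an inhibitor that binds mTOR, had 9.30, 17.1 and 19.3 CPM with cisplatin and 48.6, 29.7 and 47.2 CPM with vehicle (-1.47 ± 0.46, edgeR adjusted p = 0.0306). The arms of these 3 genes did not overlap. Sesn3, which restrains mTORC1, was also lower (-1.59 ± 0.49, edgeR adjusted p = 0.0287). Mknk2, a kinase of eIF4E, was higher (2.28 ± 0.33, edgeR adjusted p = 3.3e-04) and kept its call in all 14 alternative fits. Rps6, a ribosomal protein phosphorylated downstream of mTORC1, was higher as well at its most abundant probe (1.22 ± 0.33, edgeR adjusted p = 0.0162). Its other tested probe, 29675, was not called, though its arms did not overlap (0.36 ± 0.26, edgeR adjusted p = 0.352). Without vehicle library 1 the calls of Rheb (adjusted p = 0.0516), Ddit4 (0.0915), Deptor (0.185), Sesn3 (0.0922) and Rps6 (0.106) were lost. Further losses came without vehicle library 2 for Ddit4 (0.0592) and Sesn3 (0.118), and without vehicle library 3 for Ddit4 (0.0506), Deptor (0.140) and Rps6 (0.0631). Leaving out cisplatin library 1 ended the calls of Deptor (0.0828) and Sesn3 (0.0547), library 2 those of Ddit4 (0.0888) and Deptor (0.0557), and library 3 that of Sesn3 (0.0925). With library totals alone Rheb (0.0697), Ddit4 (0.0851) and Rps6 (0.105) were not called.

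Of 7 tested genes around eIF2 phosphorylation 2 rose and 0 fell at their most abundant probe, of 8 listed (gene background 12.3% and 13.8%). Ppp1r15a, the subunit that directs a phosphatase to eIF2, had 1754, 2098 and 2296 CPM with cisplatin, against 301, 201 and 338 CPM with vehicle (2.87 ± 0.31, edgeR adjusted p = 5.1e-05). The interferon-induced kinase gene Eif2ak2 had 127, 105 and 139 CPM with cisplatin and 62.1, 77.0 and 60.2 CPM with vehicle (0.90 ± 0.30, edgeR adjusted p = 0.0402). Both rows were without overlap, but Eif2ak2 was not called with a mouse block (0.0622), with library totals alone (0.422), with no filter (0.178) or without cisplatin library 3 (0.0836) or vehicle library 1 (0.155) or 3 (0.191). The other kinase genes were not called and went both ways. All cisplatin libraries lay below the vehicle libraries for Eif2ak1 (-0.81 ± 0.33, edgeR adjusted p = 0.0922) and Eif2ak4 (-1.65 ± 0.71, 0.107). They lay above for Eif2ak3 (0.62 ± 0.35, edgeR adjusted p = 0.222). A mixed list of 9 genes held poly(A)-binding proteins and other factors. Of its 6 tested genes 0 rose and 2, Dap and Eefsec, fell at their most abundant probe (gene background 12.3% and 13.8%). Pabpc4, Paip1 and Paip2b of this list were not called. A less abundant probe of Dohh, 64223, was called higher (1.65 ± 0.45, edgeR adjusted p = 0.0164), while its most abundant probe was not called (0.69 ± 0.34, 0.156). Dap, an mTORC1 substrate, had 98.1, 112 and 127 CPM with cisplatin, against 246, 238 and 292 CPM with vehicle (-1.21 ± 0.27, edgeR adjusted p = 0.00523). Eefsec, the selenocysteine elongation factor, had a total of 1 in the cisplatin libraries and 50 in the vehicle libraries, and scaled by depth the vehicle level was 23.8 times the cisplatin level (exact 95% counting interval 4.08 to 958). Its call (edgeR adjusted p = 0.0261) was lost with a mouse block (0.0805), with no filter (0.0649) and on leaving out each library in turn apart from cisplatin library 2 (0.0569 to 0.178). None of 4 tested termination and recycling genes of 9 listed was called in edgeR's test. Nor was any of 6 tested mitochondrial translation factors of 10 listed (gene background 12.3% and 13.8% for both lists).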

How the data were processed

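Counts per probe and library were used as the authors deposited them, as whole numbers in 1 table of 6 libraries. Tools listed by the submitters' processing notes are DESeq2 1.44.0, STAR 2.7.10b and fastp 0.23.2, without their roles. Genome build and counting: not given in the sources used here. Rows were filtered with edgeR's expression filter at a minimum count of 10 and scaled with TMM factors. They were tested with edgeR 4.0.16 in R 4.3.3 (robust quasi-likelihood F-test, treatment as the only term, two-sided, adjusted over all rows), with the called threshold at 0.05. Each SE was derived from the F statistic of its row. Single values were compared with exact permutation tests, which did not use the pairing by mouse, and the scripts were tested on simulated data. An exact sign-flip test of differences within mice gave p = 0.25, the smallest possible, for the ratio of Eif4g3 to Eif4g1. It gave the same p for the ratio of the tested Eif6 probes and for that of the tested Eef2k probes. Amplified reads are no independent molecules, so counting intervals and floors leave out other error.

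The members and lists were chosen with earlier results of these data known. For each role up to 5 called genes were named, or the 2 most abundant where none was called, besides 20 fixed genes and up to 3 called genes of each related list. Both libraries of a mouse carry the same animal identifier in the labels, so the numbers pair the samples. Deviations from the group means correlated at -0.116, 0.0336 and 0.219 in the 3 mice. P-values measure the spread between 3 libraries per arm. Alternatives were RLE factors, library totals alone, no filter, a mean CPM of 10, DESeq2 1.42.0, probes summed per gene, a mouse block, mitochondrially encoded rows left out, and each library left out. In the fit with probes summed the value of a gene stands for each of its probes.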

Additional observations from a re-analysis of the deposited data

How the results depend on the processing

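With library totals alone 2 factor rows were called higher, and over all rows 459 were higher and 2023 lower, against 8, 1040 and 1304 as reported. The median over all rows was then -0.54, with the factor median 0.33 above it, against 0.31 above as reported. With probes summed per gene 3 factors were called lower. With the mouse as a block (replicate block) the same 8 and 5 factor rows were called, and DESeq2 kept all 13. Leaving out each library gave 3 to 8 factor rows higher, 2 to 5 lower, and 1085 to 2538 rows called in all (504 to 1244 higher, 581 to 1294 lower). The count share differed by -0.123 to 0.120 percentage points, and by 0.0344 with mice kept together as a replicate block. The log2 ratio differences were -0.23 to 0.51 for Eif4a2/Eif4a1 and -0.87 to 0.68 for Eif4ebp2/Eif4e. No called gene reversed in any fit.

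The following values of rows that were not called changed sign, and the cause was not tested. With library totals alone these were Eef1a1 (-0.29), Eef1d (-0.19), Eif2b4 (-0.085), Eif2s1 (-0.015), Eif3a (-0.32), Eif4enif1 (-0.36), Eif4g1 (-0.31) and Eif4g2 (-0.20). With no filter they were Eef1a1 (-0.029) and Eif4enif1 (-0.045), and with probes summed Eif4g1 (-0.036). Eef1a1 was at -0.0058 with the mouse block. Eif4ebp2 was at 0.025 with RLE factors, 0.030 with DESeq2, 0.034 with the mouse block, and 0.047 without mitochondrially encoded rows. Without single libraries the ranges were -0.29 to 0.28 for Eef1a1, -0.82 to 0.14 for Eef2kmt, -0.47 to 0.47 for Eif3a, -0.38 to 0.44 for Eif4ebp2, -0.053 to 0.33 for Eif4enif1, -1.13 to 0.21 for Eif1 and -0.58 to 0.31 for Eif4e. For probe ratios, added after the data were seen, they were -0.92 to 0.43 for Eif3c probe 74567 over 31671, -0.38 to 0.64 for Eif3k probe 31464 over 69187 and -1.49 to 0.30 for Eif5 probe 66997 over 30417. With a pseudocount of 5 the ratio of Eif3c probe 74567 differed by 0.031 and that of Eif4g3 probe 73141 over 63787 by 0.36. Depth limits the rows that rest on few cisplatin counts, such as Eef2k probe 78915 with 4.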
